A study of Mus musculus with 12 samples.

Results

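The 35 genes examined here encode aminoacyl-tRNA synthetases, and they were taken by name from the GENCODE M21 annotation of the mouse genome build mm10 (GRCm38), out of 21951 protein-coding genes. Of these, 17 encode cytosolic enzymes or subunits (Aars, Cars, Dars, Eprs, Farsa, Farsb, Hars, Iars, Lars, Nars, Qars, Rars, Sars, Tars, Vars, Wars and Yars), 16 encode mitochondrial enzymes (Aars2, Cars2, Ears2, Fars2, Hars2, Iars2, Lars2, Mars2, Nars2, Pars2, Rars2, Sars2, Tars2, Vars2, Wars2 and Yars2), and Gars and Kars each serve both compartments from a single gene. YY1 ChIP-seq had been performed on lineage-negative (Lin-) cells from the bone marrow of female mice, 3 months old and on a 129Sv4/Jae x B6 background, with 2 libraries from wild-type (WT) mice and 2 from XistΔ/Δ mice. Lin- cells are the stem and progenitor fraction left after removal of cells carrying CD11b, Gr-1, CD3ε, B220, CD8a, CD4 or TER-119. In XistΔ/Δ mice a floxed Xist allele had been recombined by Vav-iCre, a transgene in which sequences of the blood gene Vav1 drive the Cre recombinase, and the labels do not state whether WT mice carried the transgene. The labels do not say either whether a library came from 1 mouse or from pooled mice. YY1 is a zinc-finger protein that binds many promoters, and Xist is the RNA that coats the inactive X chromosome. The 8 histone-mark samples among the 12 of the series were not analysed here.

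Aminoacyl-tRNA synthetases join each amino acid to its tRNA, and thereby set which amino acid a codon adds to a protein. Cytosolic and mitochondrial translation mostly use separate synthetases, and both sets are encoded in the nucleus. Several cytosolic enzymes (Eprs, Iars, Lars, Qars, Rars, Kars and Dars among the members) are held together in the multisynthetase complex, and many cytosolic synthetase genes are known targets of ATF4, the transcription factor of the amino acid response.

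Promoters with a YY1 recognition sequence are shown because several of the widest YY1 peaks of the family lay on them. The RefSeq promoter table (GRCm38.p6, 250 bases before to 50 after a start) held 26 of the 35 genes. Cars, Hars, Hars2, Lars, Nars, Pars2, Rars, Vars and Wars had no entry under these symbols. Other names of these genes were not tried, so their promoters were not searched. The YY1 motif was searched as GCCATNTT on both strands, so that it reads AANATGGC on the other strand, and it was found in 5 of the 26 genes, against 7.59% of the 16522 protein-coding genes with an entry. Among the 6213 of these with a YY1 peak in all 4 libraries the share was 14.6%. Each stretch runs from 150 bases before the RefSeq start through the first 30 transcribed bases, 5′ to 3′ along the gene, and capitals mark the motif. The coordinates are those of Farsa (chr8:84856836-84857015, plus strand), Yars2 (chr16:16302815-16302994, plus strand), Lars2 (chr9:123366777-123366956, plus strand), Aars2 (chr17:45506682-45506861, plus strand) and Wars2 (chr3:99140940-99141119, plus strand).
Farsa: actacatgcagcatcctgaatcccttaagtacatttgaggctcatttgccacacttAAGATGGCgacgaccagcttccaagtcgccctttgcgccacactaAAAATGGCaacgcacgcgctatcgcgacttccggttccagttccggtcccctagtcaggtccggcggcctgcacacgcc
Yars2: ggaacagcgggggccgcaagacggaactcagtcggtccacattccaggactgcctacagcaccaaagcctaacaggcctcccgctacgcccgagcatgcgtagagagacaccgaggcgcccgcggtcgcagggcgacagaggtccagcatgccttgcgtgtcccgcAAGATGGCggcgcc
Lars2: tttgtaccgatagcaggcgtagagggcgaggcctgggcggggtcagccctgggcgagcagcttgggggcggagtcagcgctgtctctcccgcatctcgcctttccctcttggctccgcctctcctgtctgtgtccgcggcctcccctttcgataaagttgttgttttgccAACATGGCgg
Aars2: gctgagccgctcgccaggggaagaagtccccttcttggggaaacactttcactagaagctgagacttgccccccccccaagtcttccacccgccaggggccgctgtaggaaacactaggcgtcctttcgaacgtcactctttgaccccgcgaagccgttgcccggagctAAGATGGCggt
Wars2: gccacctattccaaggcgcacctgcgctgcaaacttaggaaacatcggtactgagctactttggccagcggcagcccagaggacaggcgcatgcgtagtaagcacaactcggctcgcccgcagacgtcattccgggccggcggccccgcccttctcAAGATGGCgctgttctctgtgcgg

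All matches were in the AANATGGC orientation along the gene. Farsa, which encodes the alpha subunit of cytosolic phenylalanyl-tRNA synthetase, held 2 copies upstream of its start, with first bases at -94 and -49. In the other 4 genes, all mitochondrial, the motif lay in the first transcribed bases, with its first base at 21 in Lars2, 17 in Yars2, 7 in Wars2 and 20 in Aars2, counted from 1 at the RefSeq start. The ATG inside the motif was an annotated start codon in 3 of the 5 genes (Aars2, Wars2 and Yars2), compared with 20.6% of the 1254 protein-coding genes whose promoter held the motif. By compartment, 1 of 10 cytosolic and 4 of 14 mitochondrial promoters had the motif, and neither Gars nor Kars did. With the shorter core CCATNTT the counts were 1 of 10 and 6 of 14, as Cars2 and Sars2 were added. That made 7 of the 26 genes (26.9%), against 17.4% of all genes with an entry and 22.2% of those with a peak in all 4 libraries. Within 1 kb of any annotated start the order turned, with GCCATNTT at 7 of 10 cytosolic and 9 of 14 mitochondrial genes, but 50.8% of all genes with an entry then had a match.

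The element TGATGNAA, which ATF4 binds together with C/EBP proteins, was searched in the same windows on both strands. It was found in 5 of the 26 genes (Aars, Gars, Iars, Tars and Yars) and in 3.99% of all genes with an entry. These were 4 of 10 cytosolic genes, none of 14 mitochondrial genes and 1 of the 2 genes that serve both compartments. None of the 26 genes held both GCCATNTT and TGATGNAA in this window, and the other members were not searched. Aars, with 2 copies, and Iars and Tars, which lacked a YY1 peak in at least 1 library, are shown, with capitals on the element. The coordinates are those of Aars (chr8:111033692-111033871, plus strand), Iars (chr13:49681980-49682159, plus strand) and Tars (chr15:11399629-11399808, minus strand).
Aars: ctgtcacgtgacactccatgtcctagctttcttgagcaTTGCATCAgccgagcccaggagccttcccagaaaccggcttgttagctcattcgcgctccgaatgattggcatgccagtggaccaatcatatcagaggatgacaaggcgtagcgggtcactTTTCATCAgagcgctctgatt
Iars: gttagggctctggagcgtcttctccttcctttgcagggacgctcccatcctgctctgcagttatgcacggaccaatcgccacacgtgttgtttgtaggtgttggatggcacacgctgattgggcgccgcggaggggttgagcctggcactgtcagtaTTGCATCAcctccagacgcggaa
Tars: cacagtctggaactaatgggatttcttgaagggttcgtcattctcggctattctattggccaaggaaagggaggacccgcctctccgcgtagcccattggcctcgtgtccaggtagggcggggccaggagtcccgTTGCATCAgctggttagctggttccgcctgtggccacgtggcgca

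Presence of YY1 was read from the peak list of each library. A gene was counted as having a peak when any peak of the list lay within 3 kb of any of its annotated transcript starts. There were 9553 and 15933 peaks for WT replicates 1 and 2, then 10075 and 18113 for XistΔ/Δ replicates 1 and 2, from 24.9, 50.0, 23.1 and 59.5 M tags (aligned reads as the peak caller counts them), so that depth was greater in replicate 2 of either genotype. The Xist start carried peaks of 3083 and 3222 bp in the WT libraries, and neither XistΔ/Δ library had one within 500 bp of that start. Among progenitor genes, Ptprc, Runx1, Myb and Spi1 had a peak in every library, Kit had one in 2, and Cd34 and Gata2 in 1 each. Among markers of mature lineages, Ly6g, Cd3e, Cd8a and Cd4 had a peak in none of the libraries and Itgam had one in 3. These peaks record occupancy and not expression.

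Every synthetase gene had a YY1 peak in at least 2 libraries. A peak was found at 28 and 35 of the 35 genes in WT replicates 1 and 2 and at 29 and 35 in XistΔ/Δ replicates 1 and 2. Over all protein-coding genes the shares were 39.4% and 47.6% for WT and 39.4% and 48.9% for XistΔ/Δ. In all 4 libraries a peak was present at 26 of 35 genes (74.3%), against 35.7% of all protein-coding genes. Other translation genes had higher shares still: 77 of 78 cytosolic ribosomal protein genes, 69 of 78 mitochondrial ribosomal protein genes and 55 of 68 genes of initiation and elongation factors had a peak in all 4 libraries. When only the first 50% of every list was kept, 14 of the 35 synthetase genes had a peak in all 4, against 21.1% of all protein-coding genes.

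**Figure D1:**
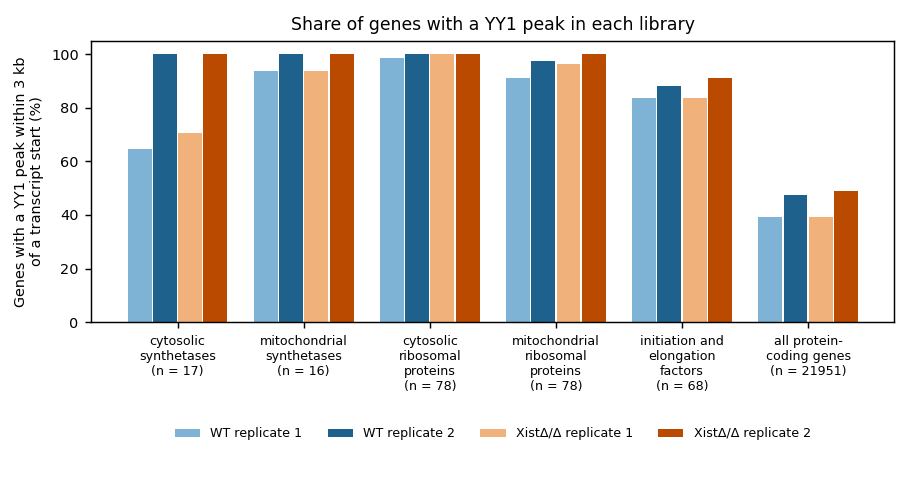
Bars give the percentage of genes (vertical axis) with a YY1 peak within 3 kb of a transcript start in each of the 4 libraries, for cytosolic and mitochondrial synthetase genes, for 3 other groups of translation genes and for all protein-coding genes. Cytosolic synthetases stand at 64.7% and 70.6% in the replicate 1 libraries and at 100% in the replicate 2 libraries, while mitochondrial synthetases start at 93.8%.

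The genes without a peak were mostly cytosolic. Of the 17 cytosolic genes, 11 and 17 had a peak for WT replicates 1 and 2, then 12 and 17 for XistΔ/Δ replicates 1 and 2. Of the 16 mitochondrial genes, 15 and 16 had one for WT and 15 and 16 for XistΔ/Δ, and Gars and Kars had one in every library. Thus 9 of 17 cytosolic and 15 of 16 mitochondrial genes had a peak in all 4 libraries. The cytosolic share was 29.0 percentage points below the mitochondrial one in WT replicate 1 and 23.2 points below it in XistΔ/Δ replicate 1, and it was equal in both replicate 2 libraries (mean -13.1 ± 15.3 percentage points, SD, n = 4 libraries). The libraries with missing genes were the 2 with fewer tags, and the part of depth was examined only by shortening the lists. The meaning of the list order is not stated, and wider peaks mostly came first (rank correlation of 0.922 to 0.961). Shortening thus removed mostly narrow peaks and did not make depth equal. In lists shortened to the first 9553 peaks, the length of the shortest one, 11, 13, 12 and 15 cytosolic and 15, 16, 15 and 14 mitochondrial genes had a peak for WT replicates 1 and 2, then XistΔ/Δ replicates 1 and 2, with 39.4%, 39.8%, 38.5% and 39.9% of all protein-coding genes in the same order. In all 4 shortened lists a peak remained at 8 of 17 cytosolic and 14 of 16 mitochondrial genes and at 33.8% of all protein-coding genes. The order of the compartments was thus kept in every shortened list but that of XistΔ/Δ replicate 2.

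Iars, Rars, Hars and Hars2 had a peak in both replicate 2 libraries and in neither replicate 1 library. These are 4 of 35 genes, and 8.63% of the 11035 protein-coding genes with any peak showed that pattern. Iars, the isoleucyl-tRNA synthetase of the multisynthetase complex, had peaks 650 bp wide in WT replicate 2 and 762 bp wide in XistΔ/Δ replicate 2. Rars, the arginyl enzyme of the same complex, had 628 and 779 bp in those libraries. Hars and Hars2, the cytosolic and mitochondrial histidyl-tRNA synthetases, are transcribed away from each other and shared 1 region, with 781 and 770 bp. The histidyl pair is therefore 1 observation and not separate ones.

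Another 5 genes, all cytosolic, lacked a peak in 1 replicate 1 library. Cars (cysteinyl-tRNA synthetase) had no peak in WT replicate 1, 633 bp in WT replicate 2, and 755 and 903 bp in XistΔ/Δ replicates 1 and 2. Sars (seryl) had none in WT replicate 1, 904 bp in WT replicate 2, and 643 and 895 bp in XistΔ/Δ. Wars (tryptophanyl) had none in WT replicate 1, 1027 bp in WT replicate 2, and 642 and 1505 bp in XistΔ/Δ. These 3 genes were absent from the WT list with fewer tags and present in both XistΔ/Δ lists. Dars (aspartyl) showed the opposite, with 646 and 929 bp in WT, none in XistΔ/Δ replicate 1 and 1159 bp in XistΔ/Δ replicate 2. Tars (threonyl) had 760 and 1289 bp in WT, none in XistΔ/Δ replicate 1 and 1216 bp in XistΔ/Δ replicate 2. No synthetase gene had peaks in both libraries of 1 genotype and in none of the other, a pattern found at 0.399% (XistΔ/Δ only) and 0.136% (WT only) of genes with any peak.

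Peak width was the graded value available, because the score was 1 for every peak. Width was turned into a percentile among all peaks of the same list, so that a higher percentile marks a wider peak, and the widest peak near each gene was used. Peaks of 501 bp, the most frequent width, made up 18.5% to 24.0% of a list. Across the 26 genes with a peak in all 4 libraries the median percentile was 58.5 and 76.3 for WT replicates 1 and 2, then 57.2 and 77.5 for XistΔ/Δ replicates 1 and 2. All protein-coding genes with 4 peaks had medians of 63.1 and 76.9 for WT and 64.6 and 79.1 for XistΔ/Δ, slightly above those of the synthetase genes in every library.

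**Figure D2:**
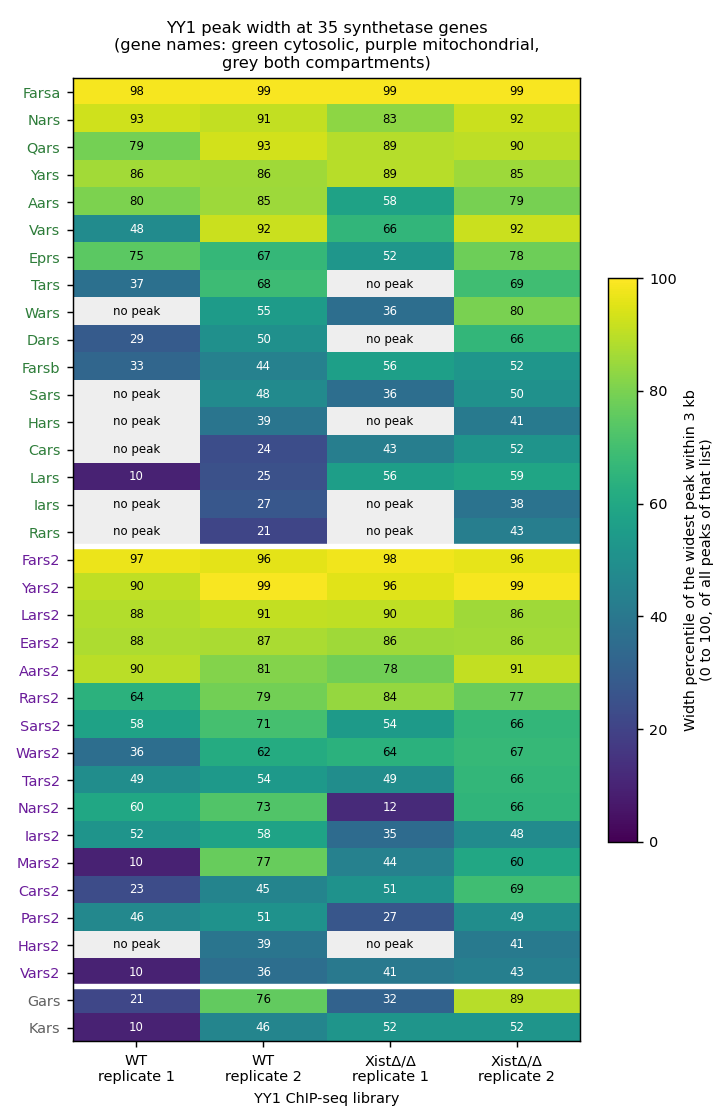
Each row is a synthetase gene, sorted by its mean within the cytosolic, mitochondrial and shared groups, and each column is a YY1 library. Colour and number give the width percentile of the widest peak within 3 kb of a start, from 0 to 100, and grey cells mark genes without a peak. Farsa, Fars2 and Yars2 are at or above 90.5 in every library, and all grey cells are in the replicate 1 columns.

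The widest peaks were at Farsa, Fars2, Yars2, Nars and Lars2, with mean percentiles of 98.9, 96.7, 96.0, 89.6 and 88.9. Farsa had peaks of 2814 and 3832 bp for WT replicates 1 and 2, then 2568 and 3584 bp for XistΔ/Δ replicates 1 and 2, within chr8:84854532-84858363, which covers the promoter printed above. Fars2, the mitochondrial phenylalanyl enzyme, had 2465 and 2728 bp for WT and 2193 and 2639 bp for XistΔ/Δ. Farsb, which encodes the beta subunit of the cytosolic phenylalanyl enzyme, was far narrower, with 692 and 856 bp for WT and 834 and 907 bp for XistΔ/Δ (mean percentile 46.4). Yars2, the mitochondrial tyrosyl enzyme, had 1841 and 3719 bp for WT and 1893 and 3421 bp for XistΔ/Δ. Its peak reached 1258 and 2915 bp into the gene for WT and 1406 and 2571 bp for XistΔ/Δ, which in the replicate 2 libraries was farther than any other peak that covered a principal start. Nars, the cytosolic asparaginyl enzyme, had 2033 and 2149 bp for WT and 1286 and 2110 bp for XistΔ/Δ. Lars2, the mitochondrial leucyl enzyme, had 1728 and 2160 bp for WT and 1530 and 1754 bp for XistΔ/Δ. In bp the genotypes overlapped in all of these genes.

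At the other end stood Vars2, Lars, Kars, Pars2 and Farsb, with mean percentiles of 32.4, 37.3, 39.9, 43.3 and 46.4. Vars2, the mitochondrial valyl enzyme, had 501 and 768 bp for WT replicates 1 and 2, then 687 and 781 bp for XistΔ/Δ replicates 1 and 2. Lars, the cytosolic leucyl enzyme of the complex, had 501 and 637 bp for WT and 824 and 1023 bp for XistΔ/Δ. In bp, both XistΔ/Δ peaks of Lars were wider than both WT peaks. Those of Cars were wider than its only WT peak, as WT replicate 1 had none. At Iars2 both XistΔ/Δ peaks (638 and 883 bp) were narrower than both WT peaks (904 and 1060 bp). Which genes separate depends on the scale, since the median peak of a list was 777 bp wide for XistΔ/Δ replicate 1 and 892 or 925 bp for the others. By width percentile Lars and Iars2 stayed separate. Cars2, Farsb, Kars, Vars2 and Wars2 were then also higher in both XistΔ/Δ libraries, and Aars and Ears2 lower. The share of all genes with such a separation was not counted, so no effect of genotype can be read from these genes. Kars, which charges lysine tRNAs in both compartments, had 501 and 891 bp for WT and 788 and 904 bp for XistΔ/Δ. Pars2, the mitochondrial prolyl enzyme, had 824 and 943 bp for WT and 627 and 886 bp for XistΔ/Δ. The leucyl pair thus differed by compartment, with Lars2 among the highest and Lars among the lowest in the family.

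Between these ends, Ears2 (mean percentile 86.8), Yars (86.6), Aars2 (85.0), Rars2 (76.1), Aars (75.7), Eprs (67.9), Sars2 (62.1), Wars2 (57.2), Tars2 (54.6), Gars (54.5), Nars2 (52.5) and Mars2 (47.7) had a peak over the principal start in every library. Gars, which serves both compartments, had 627 and 631 bp in the replicate 1 libraries and 1475 and 1935 bp in the replicate 2 libraries. Mars2, the mitochondrial methionyl enzyme, had 501 and 1511 bp for WT and 758 and 1033 bp for XistΔ/Δ. Nars2, the mitochondrial asparaginyl enzyme, had 1021 and 1405 bp for WT and 501 and 1150 bp for XistΔ/Δ. In Gars and Mars2 the replicates of a genotype differed more than the genotype means did.

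Some genes had more than 1 separate region near their starts. At Qars, the glutaminyl enzyme, the widest peak of every library (1398 and 2359 bp for WT, 1459 and 1986 bp for XistΔ/Δ) lay in chr9:108516404-108518817, over the start of the neighbouring gene Qrich1 and 1653 bp from the nearest annotated Qars start. The region over the principal Qars start, chr9:108507339-108508479, had 782 and 1125 bp for WT and 801 and 1015 bp for XistΔ/Δ. The mean percentile of 87.8 for Qars therefore describes the Qrich1 start. Vars, the cytosolic valyl enzyme, had 879 and 2239 bp for WT and 953 and 2135 bp for XistΔ/Δ over its start, and a second region 642 bp away with 797 and 501 bp in WT and XistΔ/Δ replicate 2 and no peak in replicate 1. Fars2 had a region of 761 and 501 bp in WT and XistΔ/Δ replicate 2 near a later start. Single peaks of 501 bp, each in 1 library, added a region at Cars2 (XistΔ/Δ replicate 2), Iars2 (WT replicate 2, at the start of Bpnt1) and Lars2 (WT replicate 1). The start regions of Cars2 (629 and 888 bp for WT, 781 and 1216 bp for XistΔ/Δ) and Iars2 (904 and 1060 bp for WT, 638 and 883 bp for XistΔ/Δ) were present in every library, and the mean percentiles were 74.6 for Vars, 48.3 for Iars2 and 47.1 for Cars2.

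The peaks sat on the starts. The principal start, taken as the most upstream one of the transcripts marked principal in GENCODE, was inside the widest peak at 27 of 28, 33 of 35, 27 of 29 and 33 of 35 genes with a peak for WT replicates 1 and 2, then XistΔ/Δ replicates 1 and 2. For all protein-coding genes with a peak these shares were 81.0%, 82.3%, 81.4% and 82.2%, against 96.4%, 94.3%, 93.1% and 94.3% for the synthetase genes. The exceptions were Qars and Wars. The Wars peaks covered another Wars start, in a region that also holds the Wdr25 start. The principal start lay inside the peak at every mitochondrial gene that had one. Among those genes the peak reached farther into the gene than upstream at 12 of 15, 12 of 16, 12 of 15 and 13 of 16, compared with 4 of 10, 8 of 15, 3 of 10 and 8 of 15 cytosolic genes with the start inside, in the same order of libraries. The same was true of 68.4%, 64.6%, 59.0% and 62.9% of all protein-coding genes with the start inside.

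**Figure D3:**
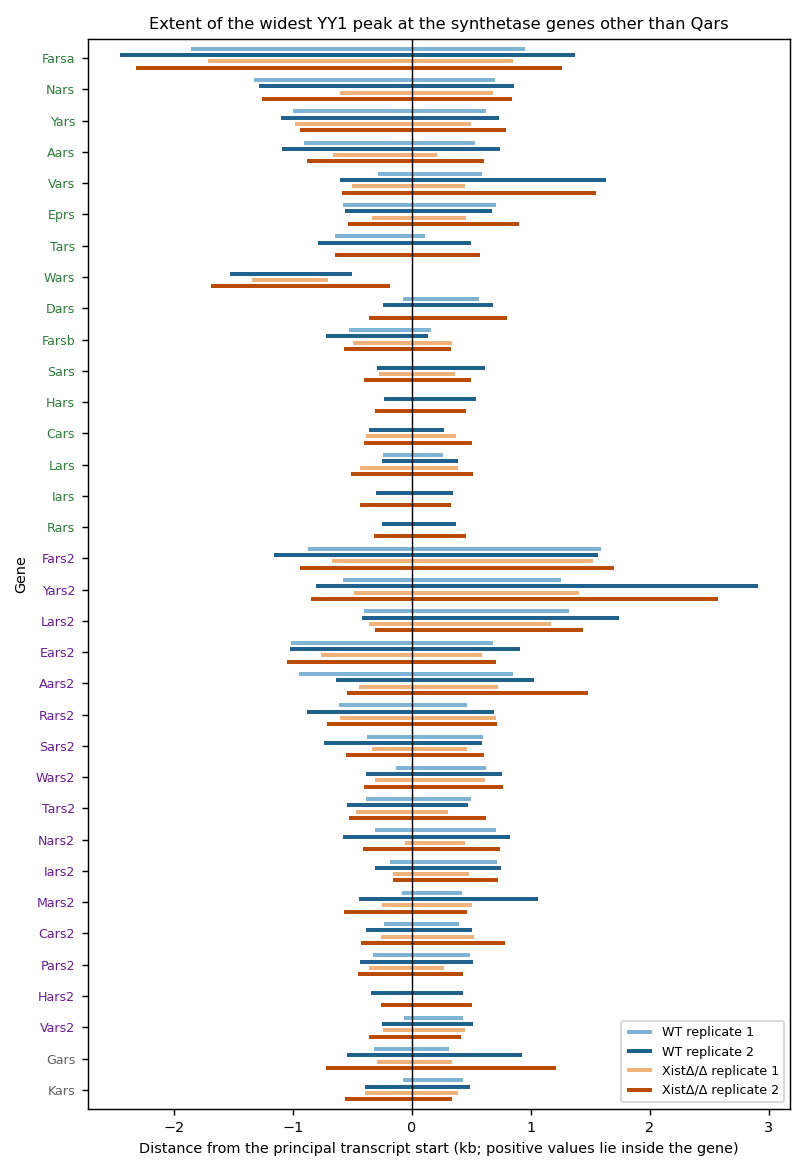
Horizontal bars show the widest YY1 peak of each library at every synthetase gene but Qars, as distance in kb from the principal start, with positive values inside the gene; a library without a peak has no bar. Green names are cytosolic, purple mitochondrial and grey shared enzymes. The bars cover the line at 0 in all genes but Wars, and those of Yars2 run 2915 bp into the gene in WT replicate 2.

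In 9 genes a protein-coding gene on the other strand started within 1 kb: Ears2 (with Ubfd1), Fars2 (Lyrm4), Hars and Hars2 (with each other), Kars (Terf2ip), Rars2 (Orc3), Sars2 (Mrps12), Wars (Wdr25) and Yars (S100pbp). A peak at these genes cannot be assigned to 1 of the 2 starts. Sars2, the mitochondrial seryl enzyme, and Mrps12, a mitochondrial ribosomal protein, shared a region with 977 and 1333 bp for WT and 802 and 1158 bp for XistΔ/Δ. Peaks at Ears2, the mitochondrial glutamyl enzyme, were 1703 and 1935 bp wide for WT and 1349 and 1761 bp for XistΔ/Δ. Rars2, the mitochondrial arginyl enzyme, had 1073 and 1575 bp for WT and 1312 and 1428 bp for XistΔ/Δ. Yars, the cytosolic tyrosyl enzyme, had 1624 and 1837 bp for WT and 1479 and 1729 bp for XistΔ/Δ. In bp the genotypes overlapped at each of these 4 genes. The median width percentile with a partner was 75.1 and 70.6 for WT replicates 1 and 2, then 84.2 and 77.3 for XistΔ/Δ replicates 1 and 2. Without a partner it was 48.8 and 64.1 for WT and 54.2 and 66.6 for XistΔ/Δ, lower in each of the 4 libraries. The same split was not made for all protein-coding genes, so the difference cannot be called particular to this family. In the replicate 1 libraries only 6 (WT) and 7 (XistΔ/Δ) of the 9 genes with a partner had a peak, against 22 of 26 without one. In replicate 2 the shared peak of Hars and Hars2 entered for both genes. A peak in all 4 libraries was found at 6 of 9 genes with a partner and at 20 of 26 without.

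Width did not separate the compartments in 1 direction. The median width percentile was 74.8 and 55.0 at cytosolic genes and 57.5 and 71.8 at mitochondrial genes in WT replicates 1 and 2. In XistΔ/Δ replicates 1 and 2 it was 57.2 and 69.3 at cytosolic and 54.3 and 66.6 at mitochondrial genes. From the mitochondrial to the cytosolic genes the median rose by 17.3 points, fell by 16.8 points, rose by 2.84 points and rose by 2.72 points in these libraries (mean 1.53 ± 14.0 percentile points, SD, n = 4 libraries). The genes that entered differed between libraries, since a gene without a peak has no width. Among genes with a peak in all 4 libraries, a choice made after the values were seen, the mean difference was 16.1 points, with 9 cytosolic and 15 mitochondrial genes. With the nearest peak in place of the widest, which moves Qars to its own start, the mean was -6.12 points, without WT replicate 1 it was -3.74, and by place in the deposited list, also chosen later, it was -19.0.

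**Figure D4:**
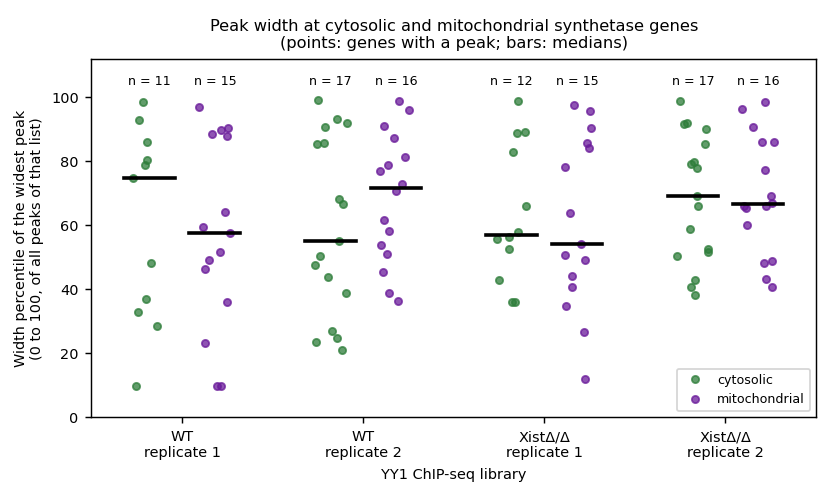
Points are synthetase genes with a peak (n above each column), the vertical axis is the width percentile from 0 to 100, and black bars are medians for cytosolic (green) and mitochondrial (purple) genes in each library. The medians are 74.8 and 57.5 in WT replicate 1 and 55.0 and 71.8 in WT replicate 2, so the order turns between replicates, and the points of both groups cover nearly the same range.

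Peaks at promoters with the YY1 motif were wider in the median. The 5 genes with GCCATNTT shown above all had a peak in every library, with mean percentiles from 57.2 (Wars2) to 98.9 (Farsa) and a median of 88.9. The 17 genes without it that had 4 peaks ranged from 32.4 to 96.7 with a median of 54.6, so the ranges overlapped, and Fars2 reached 96.7 with no match in this window. Over all genes with an entry, the motif was in 28.1% of the 2028 with 4 peaks and a mean percentile of at least 80, in 3.07% of the 1269 with 4 peaks and a mean percentile under 50, and in 3.72% of the 7847 without a peak. Of the genes with the ATF4 element, 3 of 5 had a peak in every library (Aars, Gars and Yars), while Iars and Tars did not. Of the 21 family genes without the element, 19 did. Among all 16522 genes with an entry, 6213 had a peak in every library, as had 147 of the 660 with the element.

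Genes of the multisynthetase complex had lower median percentiles than the remaining cytosolic genes in every library. Of its 7 genes here, 5 and 7 had a peak for WT replicates 1 and 2, then 4 and 7 for XistΔ/Δ replicates 1 and 2, with median percentiles of 28.7, 45.7, 54.2 and 58.8. The 11 cytosolic genes outside it had 7, 11, 9 and 11 peaks and medians of 80.4, 68.4, 57.8 and 79.3 in the same order. The value of Qars in these medians is that of the peak at the Qrich1 start. A peak was present in all 4 libraries at 4 of the 7 genes of the complex and at 6 of the 11 outside it. By the structural class of the catalytic domain, class I enzymes (18 genes) had a peak in all 4 libraries at 14 genes and class II enzymes (17 genes) at 12.

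The loss of Xist was compared within each replicate number, because depth followed that number and the directory names in the file headers share a code, of unstated meaning, within it. The number of synthetase genes with a peak was 31.5 ± 4.95 in WT and 32.0 ± 4.24 in XistΔ/Δ (SD, n = 2 libraries each), a difference of 0.500 with overlapping groups, and it was 1 gene higher in XistΔ/Δ in replicate 1 and equal in replicate 2. The median width percentile of the 26 genes with 4 peaks was 67.4 ± 12.6 in WT and 67.3 ± 14.4 in XistΔ/Δ (SD, n = 2 each). XistΔ/Δ minus WT was -1.36 points in replicate 1 and 1.18 points in replicate 2. With 2 libraries against 2, an exact permutation test cannot give a p-value below 0.333, and none is given. No synthetase gene is on the X chromosome.

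For single genes, the width percentile was taken a further step, as a rank among all 11035 protein-coding genes with any peak, with 0 for no peak, and a gene was called higher or lower when it moved the same way in both replicate numbers. In XistΔ/Δ, 8 of 35 synthetase genes were higher (Cars, Cars2, Farsb, Gars, Kars, Lars, Wars and Wars2), against 22.8% of all genes with a peak, and 8 were lower (Aars, Ears2, Iars2, Nars, Nars2, Pars2, Sars2 and Tars), against 20.3%. The other 19 did not move the same way in both. Both shares of the family are close to these. With a single replicate number the counts depended on the library left out: without either replicate 1 library 14 genes were higher and 21 lower, and without either replicate 2 library 19 were higher and 12 lower. Over all genes with a peak, 50.7% were higher and 49.0% lower without WT replicate 1, and 50.6% and 48.9% without XistΔ/Δ replicate 1. These shares were 45.9% and 41.2% without WT replicate 2, and 46.9% and 42.1% without XistΔ/Δ replicate 2. With the first 50% of every list, 3 of the 35 synthetase genes were higher and 4 lower. A synthetase gene without a peak in the shortened lists counted as neither. Of the 8736 protein-coding genes with a peak in at least 1 shortened list, 18.5% were higher and 16.5% lower. Some calls rest on very small steps, such as 0.199 points for Kars and -0.0227 points for Nars in replicate 2.

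Among the higher ones, Lars gained 30 rank points in replicate 1 and 19.9 in replicate 2. Wars gained 41.1 and 29.2 points, and Cars 45.6 and 13.0, both from no peak in WT replicate 1. Cars2, the mitochondrial cysteinyl enzyme, gained 18.7 and 22.1 points, and Wars2, the mitochondrial tryptophanyl enzyme, 22.0 and 1.75. Gars gained 6.10 and 18.7 points. Among the lower ones, Tars went from a peak in WT replicate 1 to none in XistΔ/Δ replicate 1, while Nars2 changed by -33.4 and -15.4 points, Aars by -22.1 and -13.1, Iars2 by -13.8 and -15.8 and Pars2 by -14.8 and -7.82. When a step of at least 5 points was required in both replicate numbers, a limit set after the values were seen, 5 were higher (Cars, Cars2, Gars, Lars and Wars), against 9.85% of all genes with a peak, and 4 were lower (Aars, Iars2, Nars2 and Pars2), against 9.78%. By compartment, 4 cytosolic, 2 mitochondrial and both shared genes were higher, and 3 cytosolic and 5 mitochondrial genes were lower.

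**Figure D5:**
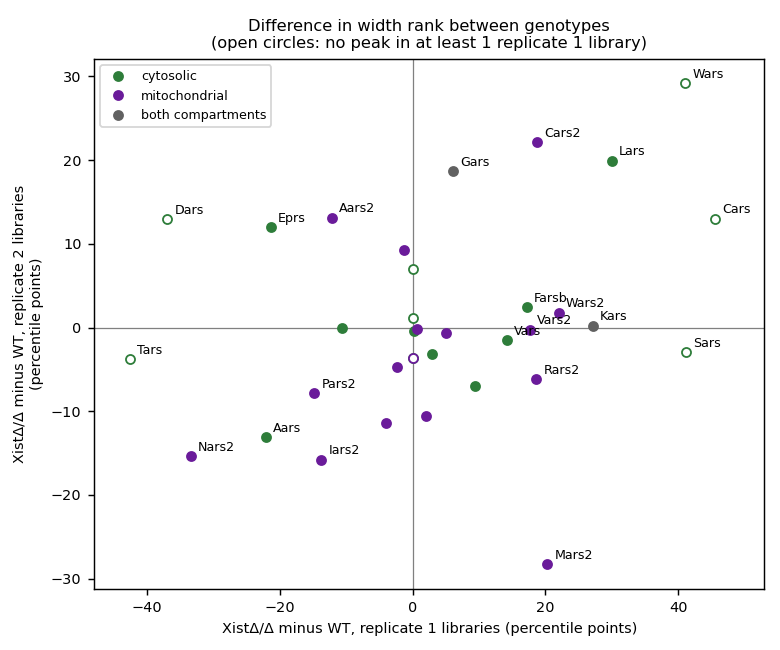
Each point is a synthetase gene, with the difference in width rank (XistΔ/Δ minus WT, in percentile points) in replicate 1 on the horizontal and in replicate 2 on the vertical axis; open circles mark genes without a peak in at least 1 replicate 1 library. Genes called higher are in the upper right part, such as Wars at 41.1 and 29.2 points, and genes called lower are in the lower left, such as Nars2 at -33.4 and -15.4.

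Other genes of tRNA charging also had peaks in most libraries. Of 22 such genes, 18 had a peak in all 4 libraries, 3 lacked one in WT replicate 1 only (Aimp2, a scaffold of the multisynthetase complex, and Trnt1 and Elac2, which mature tRNA 3′ ends), and Mtfmt, the mitochondrial methionyl-tRNA formyltransferase, had none. Mars1 (named Mars in the annotation) and Tarsl2, synthetase genes on that list, had peaks in every library, with 1390 and 1616 bp for WT and 1363 and 1745 bp for XistΔ/Δ for Mars1. The widest single peak of the list, 2946 bp in XistΔ/Δ replicate 2, was at Qrsl1, a subunit of the mitochondrial amidotransferase that makes glutaminyl-tRNA, which had 1433 and 2187 bp for WT and 1386 bp for XistΔ/Δ replicate 1. In XistΔ/Δ, 7 of the 22 were higher in rank, against 22.8% of all genes with a peak, and 4 were lower, against 20.3%. Mtfmt, without a peak, could not be called either way. Whether any gene of this list is on the X chromosome was not examined.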

How the data were processed

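Per the labels and the methods of the study, chromatin of Lin- cells was digested with micrococcal nuclease and precipitated with an antibody to YY1, and the authors trimmed reads with Trim Galore, aligned them to mm10 with Bowtie2 (2.3.5.1) and called peaks in each library separately with HOMER. Tool versions are from the submitters' processing notes (HOMER 4.9.1). Per the file headers, peaks of 500 bp were joined into regions of variable length at a false discovery rate of 0.001, tag density had to exceed that of the surroundings 4 fold, and no input library was named, so that peaks can also follow chromatin openness, and deeper libraries yield more of them. Tags per library ranged from 23.1 to 59.5 M. All scores deposited by the authors equal 1, and width was used in their place. Per the file headers replicates are numbered otherwise than in the labels, and the labels were followed.

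Transcript starts came from GENCODE M21, and the window was 3 kb. Samples were grouped by genotype as labelled, 2 libraries each, and compared within replicate number. Same-numbered libraries share depth and a header code, but the labels do not say that a number marks a shared batch. Width percentiles gave ties their mean. Every synthetase gene is accounted for. Values in all libraries are given for genes missing a peak, the 5 highest and 5 lowest by mean percentile among those with 4 peaks, and genes with several or shared regions. The members and lists were chosen with earlier results of these data known. Sequences are RefSeq (GRCm38.p6). Scripts used Python 3.11.15, pandas 2.3.3 and NumPy 2.4.6 and were tested on simulated data. Alternatives covered the window, list length, choice of peak, transcripts, libraries left out and motif. Values of a few marker and comparison genes are not reported here.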

Additional observations from a re-analysis of the deposited data

How the results depend on the processing

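The deficit of cytosolic genes kept its direction under each alternative tried that could change which genes have a peak. It stayed at -13.1 percentage points with a 1 kb window and with protein-coding transcripts only. With lists of equal length it was -18.8 points, and with the first 50% of every list -14.2 points. When 1 library was left out it lay between -17.4 and -7.72 points. No full list had a positive difference, so leaving 1 out could not turn the direction. The count in all 4 libraries fell from 26 to 14 (21.1% of all genes) when the first 50% of every list was kept. With 1 library left out, 26 to 29 genes had a peak in every library that remained, and the share of all genes was not counted. The cytosolic minus mitochondrial width difference of 1.53 points became -6.12 with a 1 kb window and with the nearest peak, -5.34 with Gars and Kars counted as cytosolic, -19.0 by place in the list and 16.1 among genes with 4 peaks, and lay between -3.74 and 7.63 with 1 library left out. By place in the list the libraries gave -4.38 and -27.9 (WT replicates 1 and 2) and -28.5 and -15.1 (XistΔ/Δ). The genotype difference in genes with a peak, 0.500, ranged from -3.00 to 4.00 with 1 library left out, negative without WT replicate 1 (-3.00) or XistΔ/Δ replicate 2 (-2.50). The median width difference of -0.0886 became 0.236 with a 1 kb window and with the nearest peak, 8.83 when WT replicate 2 was left out and 8.78 when XistΔ/Δ replicate 1 was, and was -10.3 at its lowest. Genes higher in XistΔ/Δ numbered 3 and genes lower 4 with the first 50% of the lists (18.5% and 16.5% of genes with a peak there). With steps of at least 5 points they numbered 5 and 4 (9.85% and 9.78% of genes with a peak). With 1 library left out, 14 to 19 were higher (45.9% to 50.7% of genes with a peak) and 12 to 21 lower (41.2% to 49.0%). The motif count rose from 5 (7.59% of all genes with an entry) to 17 (50.8%) within 1 kb of any start. There the cytosolic minus mitochondrial difference turned from -18.6 to 5.71 points. The causes were not tested, except that Qars moves with the nearest peak by construction.

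With the replicate block (genotype compared within replicate number) the differences were the same by construction, 0.500 genes and -0.0886 points, and its smallest possible p-value is 0.5. The place in the list, the 5-point step, the set with 4 peaks and a run without Hars and Hars2 were chosen after seeing the data. With 2 libraries per genotype, no input library named and a deeper replicate 2 in both genotypes, an absent peak means only that none was called at that depth.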
